A study of Mus musculus with 8 samples.

Results

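Genes of sterol and fatty acid synthesis, of their control by SREBP proteins and of sterol transport were compared between splenic B cells that lack the transcription factor Irf4 and wild-type B cells. The list holds 35 genes. For each gene the values come from 1 probe set, the brightest by mean signal over all 8 arrays among those that carry a single gene symbol. That mean chose the probe set, and the difference between genotypes was not part of the choice. Such a probe set was found for 34 of the 35 genes, against 18193 genes on the whole array. All 34 lay above the limit for dim probe sets that left 11798 genes for the tests. Acat2, an acetyl-CoA acetyltransferase of the first step, had no named probe set and was not analysed here.

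The study asked which genes differ in expression between irf4-/- and irf4+/+ mature B cells. Both groups came from 12-week-old C57BL/6 littermates, with 4 arrays of irf4-/- (Irf4 null) and 4 of irf4+/+ (wild type), and no treatment was given. B cells were enriched from the spleen by magnetic removal of other cells, and 1 array was hybridised per sample. The labels do not describe the Irf4 allele, the sex of the mice or whether an array holds 1 animal. The p-values thus weigh the genotype difference against the spread among these samples, some of which may be technical. Whether that spread is between single animals is not known.

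Cells make sterols and fatty acids from acetyl-CoA. The mevalonate steps build isoprenoid units, squalene synthase joins them, and a chain of oxidases, reductases and isomerases turns squalene into cholesterol. SREBP2 (Srebf2) mainly drives the sterol genes and SREBP1 (Srebf1) mainly the fatty acid genes. Scap carries both to the Golgi for activation, and the Insig proteins hold Scap back when sterols are plentiful. Activated lymphocytes raise these genes to build membranes, whereas LXR receptors, which sense oxysterols, raise the exporters Abca1 and Abcg1.

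Signals are MAS5 intensities on a linear scale. Differences are given as log2 fold changes (Irf4 null less wild type, on the log2(signal + 16) scale) with their standard errors, and a gene was called at an adjusted p below 0.05 (limma, Benjamini-Hochberg over 27022 probe sets). The targeted gene, Irf4, read 1720 to 2341 in wild type and 244 to 315 in Irf4 null. The arrays also split by Xist, the RNA of the inactive X chromosome, which read 17119 to 19652 on wild-type arrays 1, 3 and 4 and Irf4 null array 1 (Xist-high) and 49.2 to 94.8 on Irf4 null arrays 2, 3 and 4 and wild-type array 2 (Xist-low). The mean of 56 markers of other cell types was 7.81 to 8.22 (log2) on Xist-high and 8.76 to 9.54 on Xist-low arrays, and the mean of 23 cell cycle genes was 9.11 to 9.69 and 10.15 to 10.34. Of 54 tested markers of other cell types 49 had a fold change above 0, 3 were called higher and the median was 0.72, against a median of 0.21 with Xist-high as a term. Of the 23 cell cycle genes 21 had a fold change above 0, 1 was called higher and the median was 0.77, or 0.28 with Xist-high as a term. Plasma cell markers are not among the 56. Their mean was 10.43 to 11.68 (log2) on the wild-type and 7.44 to 7.75 on the Irf4 null arrays. All 5 tested had a fold change below 0, the median was -2.69, and 3 fell, with and without the Xist-high term: Igha (-6.80), Jchain (-6.00) and Sdc1 (-2.69). Prdm1 (-0.51) and Xbp1 (-0.08) were not called. The 6 tested B cell markers, among them Ms4a1 and Cd79b, averaged 12.59 to 12.96 (log2), and none was called (limma; 0 also at an unadjusted p below 0.05). In these mixed preparations fewer cells of a type and less RNA per cell cannot be told apart.

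Between the genotypes 2 sterol synthesis genes and 2 SREBP control genes were lower in Irf4 null B cells, and 1 fatty acid gene was higher. Cyp51 and Sqle of the sterol branch and Srebf2 and Insig1 of SREBP control fell, to between 63.3% and 72.4% of the wild-type mean, and the desaturase gene Scd2 rose to 164% (n = 4 and 4). The plasma cell markers, whose mean was lower on every Irf4 null array than on any wild-type array, and the cell cycle genes and markers of other cell types, mostly above 0, differed between the same groups, and their part in these changes was not tested. These were the only calls, 4 of 34 genes lower and 1 of 34 higher, beside 4.37% of all 11798 genes called in either direction, 1.7% lower and 2.67% higher. The same 5 genes, and no other but Acly, had 4 Irf4 null signals that lay wholly on 1 side of the 4 wild-type signals. For all genes the shares were 5.71% wholly below and 7.13% wholly above wild type. With Xist-high as a term 4 genes were called lower, Cyp51, Sqle, Insig1 and Hmgcs1, and none higher (0 of 34, with 4 at an unadjusted p below 0.05), beside 1.1% and 1.97% of all genes. Leaving out 1 array changed the count of 4 lower and 1 higher to 0 and 0 without wild-type array 3 or Irf4 null array 2, and to 0 and 1 without wild-type array 4. It became 1 and 1 without Irf4 null array 1, 2 and 0 without Irf4 null array 4, 4 and 0 without wild-type array 1, 3 and 1 without Irf4 null array 3, and 5 and 3 without wild-type array 2.

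**Figure D1:**
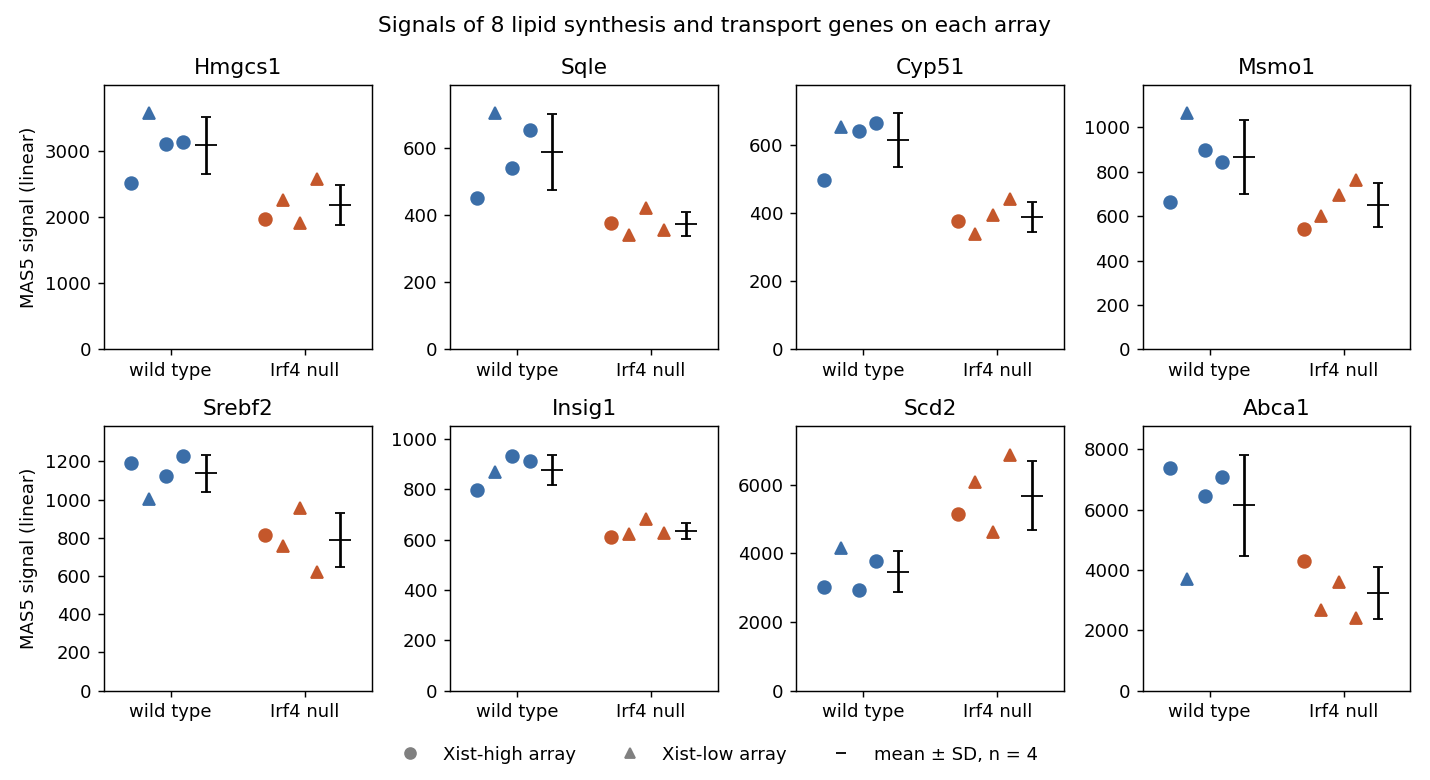
MAS5 signal (linear axis from 0) of 8 genes on each of the 4 wild-type (blue) and 4 Irf4 null (orange) arrays, drawn as circles for Xist-high and triangles for Xist-low arrays, with the mean and SD of each group in black. Sqle, Cyp51, Srebf2 and Insig1 lie wholly lower and Scd2 wholly higher in Irf4 null, while Hmgcs1, Msmo1 and Abca1 overlap between the genotypes.

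The promoters of 4 of these genes are shown because each was called lower in Irf4 null in the fit by genotype alone or in that with the Xist-high term, and because SREBP proteins act through such regions. RefSeq windows of 300 bases (GRCm38.p6) were found for 27 of the 35 genes; Sqle and Scd2 are among those without one. The 250 bases before the start are printed 5′ to 3′ on the gene's strand. They span chr13:119690101-119690350 (plus strand) for Hmgcs1, chr5:4104698-4104947 (minus) for Cyp51, chr15:82147019-82147268 (plus) for Srebf2 and chr5:28071162-28071411 (plus) for Insig1. Capitals mark matches on either strand to the SREBP motif TCACNCCAC, the NF-Y motif CCAAT and the E-box CACGTG, where N is any base; no match overlapped another.
Hmgcs1: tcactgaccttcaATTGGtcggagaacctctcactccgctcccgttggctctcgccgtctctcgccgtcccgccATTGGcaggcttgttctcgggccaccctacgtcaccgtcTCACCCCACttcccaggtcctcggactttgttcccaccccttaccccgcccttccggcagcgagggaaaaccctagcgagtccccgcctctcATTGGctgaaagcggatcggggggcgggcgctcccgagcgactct
Cyp51: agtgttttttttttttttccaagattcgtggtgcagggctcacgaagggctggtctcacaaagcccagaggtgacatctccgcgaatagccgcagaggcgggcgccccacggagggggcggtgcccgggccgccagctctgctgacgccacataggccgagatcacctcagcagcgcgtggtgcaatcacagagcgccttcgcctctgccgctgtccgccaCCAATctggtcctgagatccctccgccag
Srebf2: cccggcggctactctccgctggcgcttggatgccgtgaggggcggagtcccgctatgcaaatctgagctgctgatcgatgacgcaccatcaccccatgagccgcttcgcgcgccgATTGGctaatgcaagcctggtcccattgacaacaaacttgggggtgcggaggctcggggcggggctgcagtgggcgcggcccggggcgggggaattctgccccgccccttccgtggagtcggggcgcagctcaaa
Insig1: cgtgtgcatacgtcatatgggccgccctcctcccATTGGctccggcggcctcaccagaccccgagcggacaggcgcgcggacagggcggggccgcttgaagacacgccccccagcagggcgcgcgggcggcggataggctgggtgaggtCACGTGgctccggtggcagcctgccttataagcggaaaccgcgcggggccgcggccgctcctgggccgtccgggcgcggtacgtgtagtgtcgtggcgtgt
The Hmgcs1 window held the SREBP motif 137 to 129 bases before the start, on the gene's own strand, and 3 CCAAT matches on the reverse strand. Cyp51 and Srebf2 held 1 CCAAT match each, and Insig1 held 1 CCAAT match and 1 E-box. Over the whole 300 bases, CCAAT occurred in 14 of 15 sterol synthesis genes (93.3%), 4 of 5 SREBP control genes (80.0%) and 3 of 6 fatty acid genes (50.0%), against 42.8% of the 9589 tested genes with a window. The SREBP motif occurred in Hmgcs1 alone of the 27, against 1.41% of tested genes, and the E-box in 7 of 27 (25.9%), against 11.6%. The Ets-IRF composite motif occurred in Pmvk alone of the 27, against 2.97% of tested genes, and the interferon response motif in Ebp alone, against 3.79%. These last motifs can overlap each other. These are matches of letters in a short window and show no binding. Only exact matches to each motif were counted, so a missing match does not show that a gene lacks a site.

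The mevalonate steps had no call among 6 tested genes (limma; 1 of the 6 at an unadjusted p below 0.05), with a median log2 fold change of -0.16. Hmgcs1, which makes HMG-CoA and carries the SREBP motif shown above, read 2521, 3571, 3106 and 3141 on wild-type arrays 1 to 4 and 1965, 2259, 1917 and 2575 on the Irf4 null arrays. Only Irf4 null array 4 reached into the wild-type range, above wild-type array 1. The fold change of -0.50 ± 0.12 missed the threshold narrowly (limma, adjusted p = 0.0507). Adding the Xist-high term gave -0.62 ± 0.12, which passed (limma, adjusted p = 0.0244). By genotype alone it also passed without wild-type array 1 (-0.59; limma, adjusted p = 0.0359) or Irf4 null array 4 (-0.58; limma, adjusted p = 0.0455). The 4 other Hmgcs1 probe sets had fold changes of -0.49 to -0.21 by genotype alone, and none passed. With the Xist-high term 1 of them passed, at -0.66 ± 0.12 (limma, adjusted p = 0.015), and the others did not.

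Idi1, which isomerises isopentenyl diphosphate, read 737, 1366, 1155 and 1126 on the 4 wild-type arrays, against 581, 733, 1071 and 1159 on the Irf4 null arrays. The ranges overlapped widely, with the lowest value on array 1 in both genotypes, and the fold change was -0.32 ± 0.23 (limma, adjusted p = 0.543). The next enzyme, farnesyl diphosphate synthase (Fdps), stood at -0.19 ± 0.16. Adding the Xist-high term gave -0.62 ± 0.20 for Idi1 (limma, adjusted p = 0.165) and -0.39 ± 0.14 for Fdps (limma, adjusted p = 0.229), and neither passed. Of the kinases and the decarboxylase before Idi1, Mvk stood at -0.12 ± 0.27, Pmvk at 0.21 ± 0.11 and Mvd at 0.14 ± 0.17. Mvk averaged 93.1 in wild type, with the dim limit at 42.9, and its sign turned with the Xist-high term (0.11).

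From squalene to cholesterol, 2 of 11 genes fell, none rose and 9 had a fold change below 0, with a median of -0.23. Among all genes 1.7% were called lower and 45.4% had a fold change below 0. Cyp51, the demethylase that takes lanosterol into the sterol chain, read 496, 655, 641 and 666 on the 4 wild-type arrays, against 379, 339, 395 and 443 on the Irf4 null arrays. No Irf4 null array reached the lowest wild-type array, array 1, which stood apart from the other 3. The mean went from 614 ± 79.4 to 389 ± 43.1 (SD), a log2 fold change of -0.64 ± 0.13 (limma, adjusted p = 0.0204). A second Cyp51 probe set also fell, by 0.59 ± 0.12 (limma, adjusted p = 0.0222), and another lay below the dim limit. The Xist-high term moved the change to -0.68 ± 0.15 (limma, adjusted p = 0.0374). It was -0.63 in the Xist-high set and -0.72 in the Xist-low set. Here and below, the Xist-high set holds only 1 Irf4 null array and the Xist-low set only 1 wild-type array. The call was lost without wild-type array 3 or 4 or Irf4 null array 1 or 2 (limma, adjusted p up to 0.0765), with the fold change at -0.57 or below without any 1 array.

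Sqle, squalene epoxidase, which adds the first oxygen of the sterol chain, read 453, 705, 540 and 654 on the 4 wild-type arrays, against 376, 343, 422 and 356 on the Irf4 null arrays. All 4 Irf4 null values lay below the wild-type values, and the wild-type arrays varied more. The fold change was -0.61 ± 0.14 (limma, adjusted p = 0.0422), and -0.70 ± 0.16 with the Xist-high term (limma, adjusted p = 0.0468). It was -0.51 in the Xist-high set and -0.89 in the Xist-low set. The call held without wild-type array 1 or 2 and was lost without any other single array (limma, adjusted p up to 0.136).

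The other 9 genes of this stretch were not called. Msmo1, the methylsterol oxidase that acts after Cyp51, read 662 to 1064 in wild type and 544 to 763 in Irf4 null, with a fold change of -0.40 ± 0.15 (limma, adjusted p = 0.199). Adding the Xist-high term gave -0.58 ± 0.14, just short of the threshold (limma, adjusted p = 0.0534). Squalene synthase (Fdft1) stood at -0.28 ± 0.13 and the desaturase Sc5d at -0.27 ± 0.11, both with overlapping ranges. Hsd17b7 (-0.23), Nsdhl (-0.16) and Lss (-0.11), a reductase, a dehydrogenase and lanosterol synthase, had 95% intervals that included 0, and Hsd17b7 stood at -0.07 with the Xist-high term. The sterol reductases Dhcr7 (-0.02) and Tm7sf2 (0.16) and the isomerase Ebp (0.12) were not called either, with intervals, for Dhcr7, Ebp and Tm7sf2, of -0.31 to 0.27, -0.06 to 0.30 and -0.40 to 0.72. Over the sterol branch as a whole, 13 of 17 genes had a fold change below 0, against 45.4% of all genes, and the median was -0.19 against 0.025 over all genes. With the Xist-high term 11 of 17 lay below 0, against 46.6% of all genes, and the median was -0.23.

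**Figure D2:**
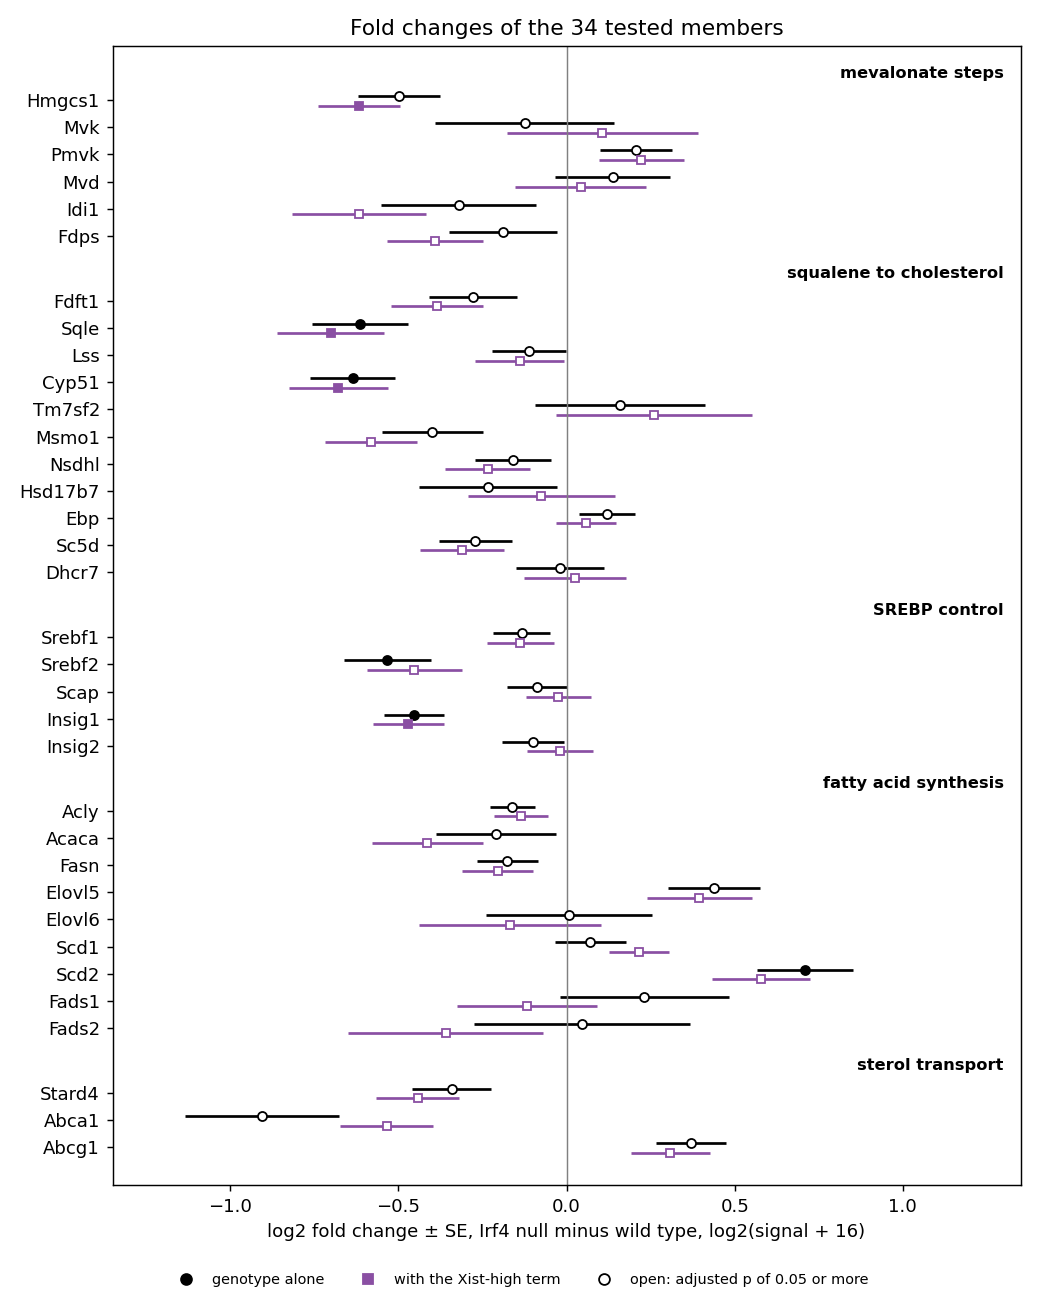
Log2 fold change with its standard error for the 34 tested genes, Irf4 null minus wild type on the log2(signal + 16) scale, grouped by role, from the genotype alone (black circles) and with the Xist-high term (purple squares), filled where the adjusted p was below 0.05. Filled circles mark Sqle (-0.61), Cyp51 (-0.64), Srebf2 (-0.53), Insig1 (-0.45) and Scd2 (0.71), and filled squares mark Hmgcs1, Sqle, Cyp51 and Insig1.

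Of the 5 SREBP control genes 2 fell, all 5 had a fold change below 0 and the median was -0.13. Over all genes 1.7% were called lower and 45.4% had a fold change below 0. Insig1, the sterol-regulated retention factor of Scap and itself an SREBP target, read 796, 869, 931 and 913 on the 4 wild-type arrays, against 609, 624, 682 and 627 on the Irf4 null arrays. The 2 ranges were narrow and stood clearly apart. The Irf4 null mean was 72.4% of wild type, a fold change of -0.45 ± 0.09 (limma, adjusted p = 0.0194), and the Xist-high term moved it to -0.47 ± 0.11 (limma, adjusted p = 0.0452). No other probe set carries the symbol Insig1 alone. The value was -0.52 in the Xist-high set and -0.42 in the Xist-low set. Without 1 array it stayed between -0.50 and -0.43, and the call was lost without wild-type array 3 or 4 or Irf4 null array 1, 2 or 4 (limma, adjusted p up to 0.0734).

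Srebf2, which encodes SREBP2, read 1192, 1003, 1123 and 1228 on the 4 wild-type arrays, against 817, 755, 958 and 620 on the Irf4 null arrays. The highest Irf4 null array, array 3, came close to wild-type array 2. The fold change of -0.53 ± 0.13 only just passed (limma, adjusted p = 0.049) and did not pass with the Xist-high term, at -0.45 ± 0.14 (limma, adjusted p = 0.154). A second, dimmer Srebf2 probe set stood at -0.12 and was not called (SE 0.14; limma, adjusted p = 0.721). The call held without wild-type array 2 or Irf4 null array 3 and was lost without any other single array (limma, adjusted p up to 0.148).

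Srebf1 (-0.13 ± 0.09), Scap (-0.09 ± 0.09) and Insig2 (-0.10 ± 0.09) were not called. Their 95% intervals ran from -0.32 to 0.05, from -0.29 to 0.11 and from -0.30 to 0.10. These leave out the estimates for Insig1 (-0.45) and Srebf2 (-0.53). They overlap the intervals of Insig1 (-0.65 to -0.26) and Srebf2 (-0.82 to -0.25). Whether Insig1 and Insig2 changed unequally was tested on the difference of their log2 levels per array, 1 of 5 pairs of related genes chosen after the values were seen. The difference shifted by -0.36 between genotypes (exact permutation test, two-sided, p = 0.0571, 0.0952 after adjustment over the 5 pairs), where the smallest p that 4 against 4 arrays allow is 0.0286. For Srebf2 against Srebf1 the shift was -0.40 (exact permutation test, p = 0.0571, adjusted 0.0952), so neither pair passed.

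Fatty acid synthesis as a group showed no common direction: 1 of 9 genes rose, none fell, 6 had a fold change above 0 and the median was 0.045. With the Xist-high term 6 of 9 lay below 0 and the median was -0.14, and 6 of 9 also lay below 0 in each Xist set. Of all genes 2.67% were called higher and 45.4% had a fold change below 0, or 46.6% with the Xist-high term. The median was below 0 without wild-type array 1 (-0.12), wild-type array 4 (-0.076) or Irf4 null array 2 (-0.036) as well. Scd2, a stearoyl-CoA desaturase that makes monounsaturated fatty acids, read 3022, 4144, 2924 and 3773 on the 4 wild-type arrays, against 5156, 6084, 4618 and 6879 on the Irf4 null arrays. Every Irf4 null array lay above every wild-type array. The mean went from 3466 ± 590 to 5684 ± 1001 (SD), a log2 fold change of 0.71 ± 0.14 (limma, adjusted p = 0.0214). Adding the Xist-high term gave 0.58 ± 0.14, which did not pass (limma, adjusted p = 0.0692), and it was 0.68 in the Xist-high set and 0.48 in the Xist-low set. Of 2 dimmer Scd2 probe sets, 1 stood at 0.37 (limma, adjusted p = 0.174) and the dimmest at -0.07. The call was lost without wild-type array 1 or 3 or Irf4 null array 2 or 4 (limma, adjusted p up to 0.0738).

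The related desaturase Scd1 read 14274 to 21250 in wild type and 18016 to 20270 in Irf4 null, with a fold change of 0.07 ± 0.11 (95% interval -0.16 to 0.31), or 0.22 with the Xist-high term. The shift of Scd2 against Scd1, 0.64, did not pass (exact permutation test, two-sided, p = 0.0857, adjusted 0.107 over the 5 pairs). Elovl5, which lengthens polyunsaturated fatty acids, read 6471, 7295, 5046 and 6417 on the 4 wild-type arrays, against 9041, 10517, 7587 and 7154 on the Irf4 null arrays. Only Irf4 null array 4 fell within the wild-type range, and the fold change of 0.44 ± 0.14 was not called (limma, adjusted p = 0.117). It was called without wild-type array 2 (limma, adjusted p = 0.0446). A second Elovl5 probe set gave 0.48 (limma, adjusted p = 0.0874). Elovl6, which lengthens saturated fatty acids, stood at 0.0074 ± 0.25, and the shift of Elovl5 against it, 0.43, did not pass (exact permutation test, p = 0.2).

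The enzymes that supply and use malonyl-CoA were not called. Acly, which makes cytosolic acetyl-CoA for both branches, read 5056 to 5316 in wild type and 4275 to 4974 in Irf4 null. The groups did not overlap, yet the difference was small, -0.16 ± 0.07 (limma, adjusted p = 0.246). Fatty acid synthase (Fasn) stood at -0.18 ± 0.09. The carboxylase Acaca, which makes malonyl-CoA, stood at -0.21 ± 0.18, with Irf4 null array 1 at 286 against 467 to 544 on the other 3, and at -0.41 with the Xist-high term. The desaturases Fads1 (0.23 ± 0.25) and Fads2 (0.045 ± 0.32) were dim, at wild-type means of 108 and 73.8, and both stood below 0 with the Xist-high term (-0.12 and -0.36).

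Among the 3 genes of sterol transport none was called (limma; 2 lower and 1 higher at an unadjusted p below 0.05). Abca1, which exports cholesterol across the plasma membrane, read 7386, 3708, 6434 and 7063 on the 4 wild-type arrays, against 4281, 2688, 3606 and 2408 on the Irf4 null arrays. Wild-type array 2, the Xist-low wild-type array, lay below Irf4 null array 1, the Xist-high one. The fold change of -0.91 ± 0.23 was the largest of the 34 in size and was not called (limma, adjusted p = 0.0562), and with the Xist-high term it was -0.54 ± 0.14 (limma, adjusted p = 0.0792). A dimmer Abca1 probe set fell by 1.20 ± 0.21 (limma, adjusted p = 0.0113), from a mean signal of 136 to 51.2, and another stood at -0.44 (limma, adjusted p = 0.253). The Xist-high term itself was called for Abca1 alone of the 34 genes, 0.74 ± 0.14 higher on Xist-high arrays (limma, adjusted p = 0.0202), beside 0.263% of all genes called higher and 2.92% called lower for that term. Markers of other cell types split the arrays the same way, so these cannot be told apart. The brighter probe set passed without wild-type array 2 (-1.13; limma, adjusted p = 0.00266) or Irf4 null array 1 (-1.05; limma, adjusted p = 0.0425).

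Abcg1, a transporter that exports sterols to HDL, had signals of 1761, 2309, 1964 and 1697 on the 4 wild-type arrays, against 2631, 2384, 2676 and 2270 on the Irf4 null arrays. Irf4 null array 4 lay just below wild-type array 2, and the fold change of 0.37 ± 0.11 was not called (limma, adjusted p = 0.0884). It was called without wild-type array 2 (0.46; limma, adjusted p = 0.0118). The shift of Abca1 against Abcg1, -1.28, did not pass (exact permutation test, two-sided, p = 0.0571, adjusted 0.0952). Stard4, which carries cholesterol between membranes and is an SREBP target, read 533 to 684 in wild type and 431 to 561 in Irf4 null, with a fold change of -0.34 ± 0.12 (limma, adjusted p = 0.155).

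**Figure D3:**
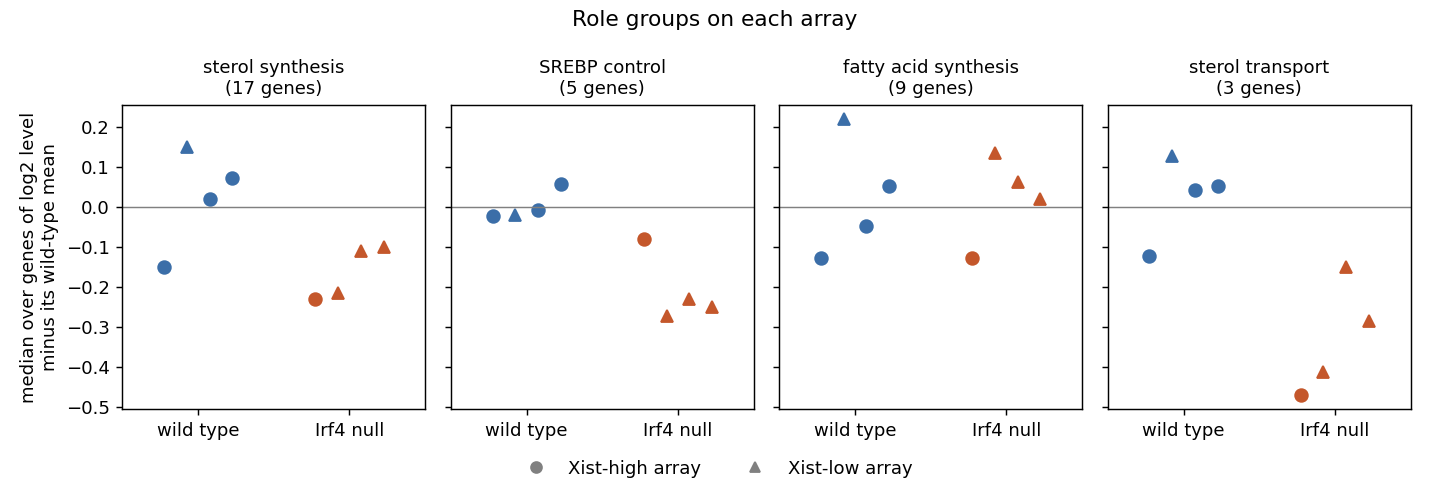
Median over the genes of a role group of the log2 level minus its wild-type mean, for each of the 8 arrays (circles Xist-high, triangles Xist-low; wild type blue, Irf4 null orange). The median of the SREBP control genes lies lower on all Irf4 null arrays (-0.27 to -0.08) than on the wild-type arrays (-0.02 to 0.06). The median of the 3 sterol transport genes does so too (-0.47 to -0.15 in Irf4 null and -0.12 to 0.13 in wild type). Each of these 3 genes overlaps between the genotypes, and Abcg1 has a fold change above 0 (0.37). Sterol synthesis overlaps through wild-type array 1, and fatty acid synthesis overlaps throughout.

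Seen array by array, the sterol branch stood at -0.15, 0.15, 0.02 and 0.07 (median log2 level relative to the wild-type mean) on wild-type arrays 1 to 4 and at -0.23, -0.21, -0.11 and -0.10 on the Irf4 null arrays. Wild-type array 1 lay within the Irf4 null range. Fatty acid synthesis stood at -0.13, 0.22, -0.05 and 0.05 in wild type and at -0.13, 0.14, 0.06 and 0.02 in Irf4 null, so array 1 was the lowest and array 2 the highest in both genotypes. The branches are described by counts and medians only, and no test between them was made. With the other-cell marker mean added as a covariate, Sqle and Insig1 were called lower and no gene higher (0 of 34 by limma; 4 at an unadjusted p below 0.05). The genotype effect was also compared between Xist-high and Xist-low arrays, where each set holds 3 arrays of 1 genotype and 1 of the other. None passed (0 of 34, beside 0% of all genes, limma interaction, lowest adjusted p = 0.504), and 3, Acaca, Sc5d and Abcg1, had an unadjusted p below 0.05, beside 6.45% of all genes.

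Around the pathway 1 gene was called. Of 18 tested genes of fatty acid activation, elongation and glyceride synthesis, Acsl5, a long-chain acyl-CoA synthetase, rose from 3638 ± 326 to 4593 ± 290 (SD), by 0.34 ± 0.08 (limma, adjusted p = 0.0496), and none fell. It did not pass with the Xist-high term (0.24; limma, adjusted p = 0.162). None of 7 genes of other sterol and prenyl synthesis was called (limma, 3 at an unadjusted p below 0.05). Of the 7 genes, 2 had a fold change below 0, against 45.4% of all genes, and the median was 0.11. Dhdds, of dolichol synthesis, had the largest difference, 0.47 ± 0.16 (limma, adjusted p = 0.152). None of 10 genes of sterol uptake, storage and oxysterols was called (1 at an unadjusted p below 0.05). Lrp8, a lipoprotein receptor, stood at 0.47 ± 0.38. Among these 10 genes, 2 had a fold change below 0 and the median was 0.15, or 7 and -0.07 with the Xist-high term. Among 13 genes of SREBP processing and partner factors none was called (2 at an unadjusted p below 0.05), 11 had a fold change below 0 and the median was -0.12. The largest of these was Sp1, a factor that acts with SREBP, at -0.26 ± 0.10 (limma, adjusted p = 0.227). The proteases that release SREBP, Mbtps1 and Mbtps2, named for that role with their values seen, stood at -0.12 ± 0.10 and 0.010 ± 0.10. None of 13 genes of fatty acid oxidation was called (1 at an unadjusted p below 0.05), with Cpt2, of the mitochondrial carnitine shuttle, at 0.39 ± 0.14 (limma, adjusted p = 0.162).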

How the data were processed

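The deposited values are linear probe set intensities, made by the authors with MAS5 (per the submitters' processing notes) from biotin-labelled cRNA made from 6 µg of total RNA, per the labels' protocols. The version used was not given in the sources used here. Without detection calls, low signals may be background. The deposited intensities have the same mean on every array without the highest and lowest 2%, 500.003, and were not normalized again. Names came from the platform annotation (34958 with 1 symbol, 932 with several, 9211 unnamed here), with symbols updated through gene identifiers to RefSeq GRCm38.p6, used for names and promoter windows only. After removal of 64 control probe sets, log2(signal + 16) was taken and the lowest 40% by mean were dropped, which left 27022. Tests of genotype used limma 3.58.1 under R 4.3.3, with lmFit and eBayes (trend). The fit was tested on simulated data with independent noise. Those data held no split by Xist or cell type, so they do not show how such a split affects the calls. The 4 and 4 arrays limit the precision. Xist-high means a signal over 1000. The members and lists were chosen with earlier results of these data known. Full values are given for every called member and the 2 with the largest fold change in each role group, and other lists name called genes, or otherwise the largest. The 5 exact permutation tests and the printed promoters were chosen after the values were seen. Figures were drawn with matplotlib 3.10.9.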

Additional observations from a re-analysis of the deposited data

Results flagged for a closer look

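In 68 groups of 4 arrays (34 genes in 2 genotypes) 6 had 1 array whose log2 level lay apart from the other 3, by a gap to the nearest beyond Dixon's 95% limit, where chance alone marks about 5% of groups. In wild type these were Cyp51, with array 1 at 496 against 641 to 666 on the others (gap 0.874 of the range), Dhcr7, with array 4 at 374 against 285 to 291 (0.924), and Scap, with array 4 at 1325 against 1251 to 1258 (0.910). In Irf4 null all 3 concerned array 3. There Fdft1 read 863 against 615 to 632 (0.921), Ebp 1966 against 1733 to 1764 (0.860) and Pmvk 479 against 577 to 591 (0.882).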

How the results depend on the processing

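Over 21 alternatives and 34 genes, 605 of 709 values kept their direction and their side of the threshold, 51 lost a call, 14 gained one and 39 changed sign, none of these in a called gene. Only the 5 called genes could lose a call. Of the 21 alternatives, Cyp51 and Insig1 stayed called in 14 each, Scd2 in 11, Sqle in 10 and Srebf2 in 5. Calls of 4 lower and 1 higher became 2 and 1 with no filter on dim probe sets, 2 and 0 with eBayes without a trend, 2 and 0 with the marker covariate, 4 and 0 with the Xist-high term or each gene's probe sets averaged, and 0 and 0 within the Xist-high or the Xist-low set (limma; 11 lower and 3 higher, and 9 and 2, at an unadjusted p below 0.05). Leaving out 1 array each gave 0 to 5 lower and 0 to 3 higher. With the replicate number as a block 4 were lower (Hmgcs1, Cyp51, Insig1 and Abca1) and 2 higher (Scd2 and Elovl5), while Sqle and Srebf2 were not called (limma, adjusted p = 0.0588 and 0.0522). Same-numbered arrays did not all deviate together (correlations -0.081 to 0.28). Arrays 1 and 2 correlated best with their own number and arrays 3 and 4 did not. Whether the numbers pair the arrays could not be settled from these values. The fatty acid median of 0.045 became -0.14 with the Xist-high term, -0.20 within Xist-low arrays and -0.20 with the covariate, and -0.12 to 0.13 without 1 array. It was also below 0 with the lowest 60% of probe sets dropped (-0.045), within Xist-high arrays (-0.024) and with probe sets averaged (-0.0033). The SREBP control median became -0.057 within the Xist-high set and -0.22 within the Xist-low set, and the transport median -0.48 within Xist-high arrays. Sign changes, none with a call, were as follows. With the Xist-high term Dhcr7 stood at 0.025, Elovl6 at -0.17, Fads1 at -0.12, Fads2 at -0.36 and Mvk at 0.11. Within Xist-high arrays Dhcr7 was 0.017, Elovl6 -0.014, Fads1 -0.024, Fads2 -0.056, Mvk 0.23 and Scap 0.080. Within Xist-low arrays Dhcr7 was 0.033, Ebp -0.018, Elovl6 -0.32, Fads1 -0.21, Fads2 -0.66, Hsd17b7 0.23 and Mvd -0.14. With the covariate Dhcr7 was 0.068, Elovl6 -0.34, Fads1 -0.20, Fads2 -0.46, Insig2 0.022 and Mvk 0.075. Elovl6 was also -0.048 with quantile normalization, -0.024 at a common median and -0.0035 with probe sets averaged, where Fads1 was -0.0033. Without 1 array each, Dhcr7 ranged from -0.067 to 0.070, Elovl6 from -0.16 to 0.17, Fads2 from -0.13 to 0.32, Mvk from -0.27 to 0.099 and Scd1 from -0.037 to 0.15. The cause of these changes was not tested. The 4 arrays a group limit the precision, and dim genes such as Mvk, Fads2 and Tm7sf2 carry the widest errors.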

Other observations

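For the difference between Xist-high and Xist-low arrays at equal genotype, Fads1 (-0.70 ± 0.21), Fads2 (-0.81 ± 0.29) and Idi1 (-0.59 ± 0.20) had the values farthest below 0 among the 34 genes, and none passed the threshold.

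Genes outside the list were singled out after their values were seen. Acsl3, an acyl-CoA synthetase, read 231 to 382 in wild type and 179 to 221 in Irf4 null, with no overlap, and was not called (-0.55 ± 0.16; limma, adjusted p = 0.099). Ppara, a receptor that drives fatty acid oxidation genes, was below the dim limit and read 48.4 to 86.7 in wild type and 12.5 to 33.3 in Irf4 null. Tested with no filter on dim probe sets it stood at -1.21 ± 0.27 (limma, adjusted p = 0.0575), a size that is uncertain at such signals.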
